A study of Mus musculus with 9 samples.

Results

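Osteoclast identity and fusion genes were described here as a set of 10 genes (Acp5, Ctsk, Calcr, Oscar, Dcstamp, Ocstamp, Nfatc1, Itgb3, Atp6v0d2 and Mitf), chosen by name out of the 39179 Ensembl genes that each library lists. All 10 were matched by symbol to the annotation of GRCm38, and all 10 passed the filter on low counts, which left 13418 genes for the test. RNA came from laser-microdissected capillaries and the cells around them in the ossification front (OF), the zone below the growth plate where new bone forms. The femurs were from Tg(TIE2GFP)287Sato/J mice, whose Tie2 promoter drives GFP in endothelium, so that vessels could be found under fluorescence and cut out without fixation. Juvenile mice were 4 weeks old (n = 5) and adult mice 12 weeks old (n = 4). No treatment or mutation distinguished the ages, and all 9 libraries carry the same transgene. GFP guided the cutting but did not select cells, so each library pools many capillary pieces with whatever neighbours they had, and osteoclasts were not sorted.

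Osteoclasts are large multinucleated cells that dissolve mineral and digest matrix. They form when myeloid precursors, supported by M-CSF and instructed by RANKL, fuse with each other under the transcription factor NFATc1, which acts together with MITF, PU.1 and AP-1. At the OF they lie close to the vessel tips, where cartilage and primary bone are removed as the front advances. Among the 10 genes, Nfatc1 and Mitf encode transcription factors of the lineage. Oscar and Calcr encode surface receptors, the first a costimulatory immunoglobulin-like receptor and the second the receptor for calcitonin. Dcstamp, Ocstamp and Atp6v0d2 are required for efficient fusion, and the last also encodes a subunit of the vacuolar proton pump. Itgb3 encodes the beta chain of the vitronectin receptor, through which the cell attaches to matrix. Acp5 encodes tartrate-resistant acid phosphatase (TRAP) and Ctsk encodes cathepsin K, the main collagen-degrading protease of the cell.

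Gene counts summed to 4856833 in the shallowest and 8077362 in the deepest library, so that 3 counts correspond to 0.371 to 0.618 CPM (counts scaled to a common library size), a limit that covers counting error only. In 7 of the 9 libraries Xist had more counts than the Y-linked genes together, and the exceptions were juvenile replicates 4 and 5. The labels give no sex, and results are also given over those 7 Xist-rich libraries, 3 juvenile and 4 adult. Adult replicate 2 held far fewer neutrophil marker counts than the other adult libraries, and its values are given beside the results that follow such markers.

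To show the sequence in front of members that the lineage factors are known to act on, the 250 bases before the start site were taken from RefSeq (build GRCm38.p6). Of the 10 genes, 5 (Acp5, Ctsk, Calcr, Oscar and Mitf) had an entry there, with 10 start sites among them. Capitals mark every match, on either strand, to the NFAT core GGAAA, the MITF M-box TCATGTG, the E-box CACGTG, the PU.1 core GAGGAA or the AP-1 element TGANTCA. The PU.1 and NFAT cores can overlap, and each was counted separately. Shown are Acp5, Oscar and Ctsk, the members with an entry and the smallest p-values. For Acp5, with 3 start sites, the one farthest downstream was chosen after the matches were seen. They lie on the minus strand at chr9:22130599-22130848 (Acp5), on the minus strand at chr7:3616158-3616407 (Oscar) and on the plus strand at chr3:95498960-95499209 (Ctsk), and are written 5′ to 3′.
Acp5: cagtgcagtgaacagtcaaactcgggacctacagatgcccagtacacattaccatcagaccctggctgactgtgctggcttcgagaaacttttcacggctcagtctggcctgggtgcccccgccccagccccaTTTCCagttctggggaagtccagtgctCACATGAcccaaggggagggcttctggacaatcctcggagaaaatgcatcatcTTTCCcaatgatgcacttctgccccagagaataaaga
Oscar: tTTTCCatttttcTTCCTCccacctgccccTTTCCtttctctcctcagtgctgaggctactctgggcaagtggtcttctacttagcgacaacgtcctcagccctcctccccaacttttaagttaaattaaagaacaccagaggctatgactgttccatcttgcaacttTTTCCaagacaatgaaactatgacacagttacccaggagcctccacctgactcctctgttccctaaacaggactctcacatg
Ctsk: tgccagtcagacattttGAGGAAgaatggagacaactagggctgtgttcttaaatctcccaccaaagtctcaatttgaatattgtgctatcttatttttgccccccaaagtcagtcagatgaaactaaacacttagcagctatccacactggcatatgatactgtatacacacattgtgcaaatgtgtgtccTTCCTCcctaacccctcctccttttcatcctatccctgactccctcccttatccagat

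The Acp5 window held 2 NFAT cores, at -117 and -37 from the start site, and 1 M-box at -90, all on the opposite strand. An M-box occurred in 3.25% of all 32851 promoter windows of this length, and in none of the other windows of the 5 members. The Acp5 start sites farther upstream each had 1 NFAT core. Oscar held 3 NFAT cores, a number that 6.39% of all windows reach, and 1 PU.1 core. Ctsk held 2 PU.1 cores, at -233 and -58, and no NFAT core, and 3.54% of all windows hold 2 or more PU.1 cores. The NFAT core is short and 55.6% of all windows have one. An E-box was found in 6.02% and an AP-1 element in 6.75% of all windows, and neither was found in the windows of these 5 genes. A match here is a string of letters and was not tested as a binding site.

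Between the ages, 3 of the 10 genes differed. Acp5, Nfatc1 and Atp6v0d2 were each about 2-fold higher in adult than in juvenile mice. No member was called higher in juvenile mice. For Ctsk, the fusion genes Dcstamp and Ocstamp, the receptors Calcr and Oscar, Itgb3 and Mitf, the adjusted p was 0.557 or more (edgeR's quasi-likelihood test). Over all tested genes, 3.88% were called at an adjusted p under 0.05, 1.89% higher in adult mice and 1.99% higher in juvenile mice. The same 3 members were the ones under an unadjusted p of 0.05, against 17.3% of all genes, and the ones called with DESeq2, against 9.61% of 15529 genes in either direction and 4.97% higher in adult mice. They were also the ones whose libraries did not overlap between the ages, which 9.15% of all genes did not in either direction and 4.08% with adult mice higher. The median log2 fold change (juvenile over adult) was -0.18 over the 10 members and -0.01 over all tested genes. Negative values were found for 8 of the 10 members and for 6776 of the 13418 tested genes. Libraries are bulk RNA, and CPM are relative to library size. More osteoclasts, more RNA of a gene per osteoclast and a changed share of other cells therefore cannot be told apart. One library was made per mouse, and p-values measure the spread between these libraries.

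**Figure D1:**
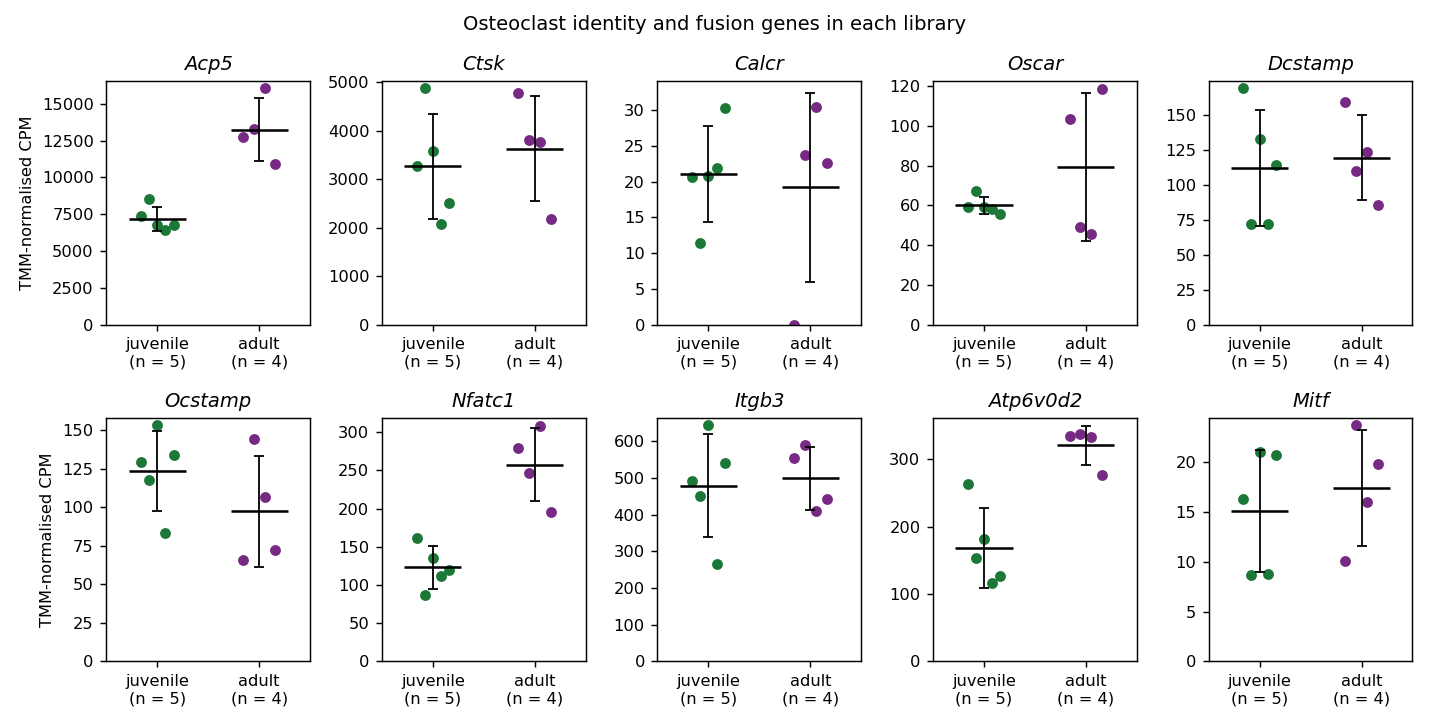
Each panel plots the TMM-normalised CPM of 1 gene (vertical axis, from 0) in the 5 juvenile and 4 adult libraries, with the mean as a horizontal bar and the SD as whiskers. Acp5, Nfatc1 and Atp6v0d2 do not overlap between the ages, while the other 7 genes do, and Calcr has 1 adult library at 0.

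Acp5 (ENSMUSG00000001348, minus strand of chromosome 9, 22126727 to 22135711) was the most abundant member. Its CPM in juvenile replicates 1 to 5 were 7406, 8546, 6779, 6437 and 6772, and in adult replicates 1 to 4 they were 12731, 13280.5, 16060.4 and 10919. Every adult library lay above every juvenile library. The juvenile mean was 7188 ± 836 (SD, n = 5) and the adult mean 13248 ± 2129 (SD, n = 4), 1.84 times as high. The log2 fold change was -0.88 (standard error 0.14, 95% interval -1.19 to -0.57, adjusted p = 0.00626, edgeR's quasi-likelihood test). The two-sided exact permutation test gave p = 0.00794, the smallest that splits of 9 libraries allow. The call held without any 1 library. Exons of Acp5 share 137 bases with 6530413G14Rik on the opposite strand, a gene not listed in the count tables, so reads from it could have been counted on Acp5 if strand was ignored.

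Nfatc1 (ENSMUSG00000033016, chromosome 18), the gene of the factor that directs osteoclast differentiation, had the largest difference of the 10 in this fit. Its CPM were 162, 86.6, 136, 111 and 119.5 in juvenile replicates 1 to 5 and 279, 247, 308 and 196 in adult replicates 1 to 4. Again the ages did not overlap. Juvenile mice averaged 123 ± 27.96 (SD, n = 5) and adult mice 257 ± 48.0 (SD, n = 4), 2.09 times as high. The log2 fold change was -1.07 (standard error 0.21, 95% interval -1.51 to -0.62, adjusted p = 0.0142, edgeR), with p = 0.00794 in the exact permutation test. Leaving out each library in turn kept the adjusted p between 0.0131 and 0.0429 (edgeR). Nfatc1 is also expressed in endothelium, and the 8 endothelial markers summed to 550.0 to 856 CPM in juvenile and 649 to 809.6 CPM in adult libraries, and 0 of the 8 were called. The part of endothelium in the difference of Nfatc1 was not tested.

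Atp6v0d2 (ENSMUSG00000028238, minus strand of chromosome 4, 19876841 to 19922605) encodes the d2 subunit of the proton pump and is the only fusion gene among the 3 called members. Its CPM were 264, 153, 182, 117 and 127 in juvenile and 335, 338, 333 and 277 in adult replicates. The adult libraries were close to each other, with a coefficient of variation of 9.06% against 35.1% in juvenile libraries, and the lowest of them lay just above the highest juvenile library. The juvenile mean was 168 ± 59.1 (SD, n = 5) and the adult mean 321 ± 29.1 (SD, n = 4). The log2 fold change was -0.93 (standard error 0.23, 95% interval -1.42 to -0.44, adjusted p = 0.04, edgeR), and the exact permutation test gave p = 0.0159. This call was fragile. Without juvenile replicate 2, 3, 4 or 5 or any 1 adult library the adjusted p was 0.0535 to 0.102 (edgeR), and it stayed under 0.05 only without juvenile replicate 1. The log2 fold change in these fits was -1.15 to -0.82.

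**Figure D2:**
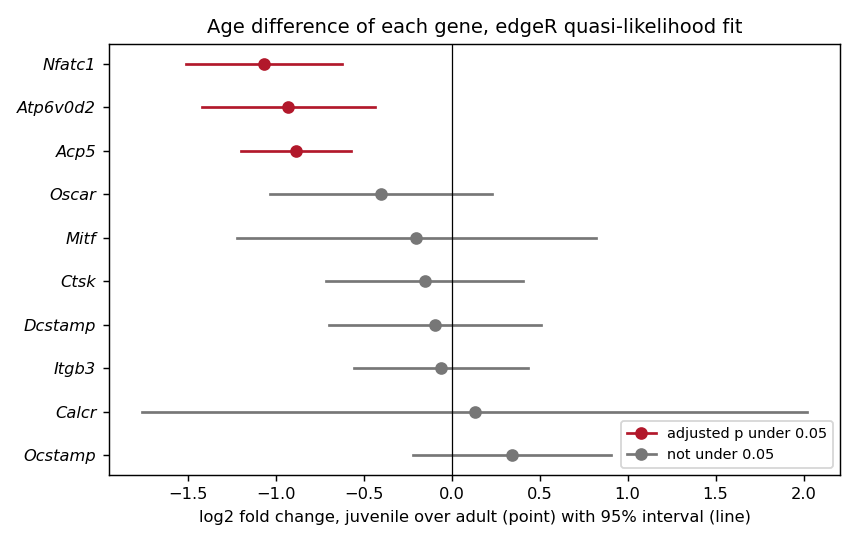
Points are log2 fold changes of juvenile over adult mice from the edgeR fit (horizontal axis) and lines are 95% intervals, 1 gene per row. The 3 genes with an adjusted p under 0.05 lie left of 0, from -1.07 to -0.88, and the interval of Calcr is the widest, from -1.76 to 2.02.

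Over the 7 Xist-rich libraries, none of the 10 genes was called, where 0.526% of 13876 tested genes were. The log2 fold changes were -0.80 for Acp5 (standard error 0.17, adjusted p = 0.0835), -1.01 for Nfatc1 (standard error 0.26, adjusted p = 0.138) and -0.68 for Atp6v0d2 (standard error 0.22, adjusted p = 0.229, all edgeR). Of the 3, Atp6v0d2 moved most. Juvenile replicates 4 and 5 had 117 and 127 CPM of it and the other juvenile libraries 153 to 264 CPM. All 4 adult libraries were Xist-rich, so no fit over the remaining libraries could be made, and beyond the 7-library values the part of sex in the differences was not tested.

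No difference was called for cathepsin K. Ctsk (ENSMUSG00000028111, chromosome 3) had 3278, 4882, 3571, 2075 and 2517 CPM in juvenile and 4770.3, 3805, 3771 and 2174 CPM in adult replicates. Both ages covered nearly the same range. Juvenile mice averaged 3264 ± 1082 CPM (SD, n = 5) and adult mice 3630.2 ± 1076 CPM (SD, n = 4). The log2 fold change was -0.15 with a 95% interval of -0.71 to 0.40 (adjusted p = 0.846, edgeR). Over the 7 libraries its sign turned, with 0.11. Within a juvenile library, Acp5 exceeded Ctsk by 1.19 ± 0.34 on the log2 CPM scale (SD, n = 5). Within an adult library it did so by 1.91 ± 0.39 (SD, n = 4), and these differences overlapped between the ages (0.81 to 1.63 and 1.42 to 2.33). With the mean of each age removed, log2 CPM of both genes correlated at r = 0.72 over the 9 libraries, given as a description.

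The difference of each member to Ctsk within a library, on the log2 CPM scale, is given as a description with no test. Nfatc1 lay below Ctsk by more in juvenile than in adult mice, a shift of -0.91 (juvenile minus adult), and the ages did not overlap (-5.81 to -4.22 against -4.09 to -3.47). The shifts of Atp6v0d2 (-0.83) and Acp5 (-0.72) were of similar size, with overlap between the ages. The remaining members shifted by 0.02 for Dcstamp, 0.057 for Itgb3, -0.073 for Mitf, -0.11 for Oscar, 0.55 for Ocstamp and 1.42 for Calcr, all with overlap. The shift of Calcr rests on adult replicate 1, which had 0 counts of it and lay at -13.9. Adult replicates 2 to 4 lay at -7.31, -6.94 and -6.56, inside the juvenile range of -8.71 to -6.36. Against the mean of the other members in place of Ctsk, Ocstamp was the member that lay higher in juvenile than in adult mice without overlap (-0.85 to -0.54 against -1.72 to -0.90, a shift of 0.67). That mean includes the 3 genes that were higher in adult mice and, in adult replicate 1, Calcr at 0 counts. Nfatc1 (-0.95) and Atp6v0d2 (-0.85) did not overlap on this reference either, and Acp5 (-0.73) did.

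The other fusion genes gave no call. Dcstamp (ENSMUSG00000022303, chromosome 15), a multi-pass membrane protein that precursors need in order to fuse, had 169, 72.2, 133, 71.7 and 114 CPM in juvenile replicates and 159, 109.7, 124 and 85.8 CPM in adult replicates. Its log2 fold change was -0.095 (95% interval -0.70 to 0.51, adjusted p = 0.924, edgeR). The related gene Ocstamp (ENSMUSG00000027670, chromosome 2) had 129.8, 118, 154, 83.2 and 134 CPM in juvenile and 65.9, 144, 107 and 72.5 CPM in adult replicates. Juvenile mice averaged 124 ± 26.0 CPM (SD, n = 5) and adult mice 97.4 ± 36.1 CPM (SD, n = 4), which made it 1 of the 2 members with a positive log2 fold change, 0.35 (95% interval -0.22 to 0.91, adjusted p = 0.576, edgeR). In adult replicate 1 Dcstamp was at its adult maximum and Ocstamp at its adult minimum. The intervals reach a Dcstamp level shifted by -0.70 and an Ocstamp level shifted by 0.91 in juvenile mice, on the log2 scale.

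Itgb3 (ENSMUSG00000020689, chromosome 11) overlapped widely, with 493, 451, 646, 265 and 541 CPM in juvenile and 556, 589, 410.3 and 444 CPM in adult replicates. Its log2 fold change was -0.060 (95% interval -0.55 to 0.43, adjusted p = 0.944, edgeR). Itgb3 is also a platelet integrin chain. The 8 megakaryocyte markers summed to 12.95 to 26.3 CPM in juvenile and 62.4 to 4359 CPM in adult libraries. Of these markers, 3 were tested and 1 was called, higher in adult mice, and their part in the level of Itgb3 was not tested.

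Neither receptor gene was called. Oscar (ENSMUSG00000054594, chromosome 7) was the most even member in juvenile mice, at 59.3, 67.1, 59.4, 58.4 and 55.5 CPM. Adult replicates fell on both sides of these, at 103, 48.9, 45.8 and 119 CPM. The coefficient of variation was 7.19% in juvenile and 47.1% in adult mice. Replicates 1 and 4 lay above and replicates 2 and 3 below every juvenile library, and the log2 fold change was -0.40 (95% interval -1.03 to 0.23, adjusted p = 0.557, edgeR).

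Calcr (ENSMUSG00000023964, chromosome 6) had 20.7, 11.4, 20.9, 22.0 and 30.3 CPM in juvenile replicates. In adult replicates 2 to 4 it had 23.7, 30.4 and 22.7 CPM, while adult replicate 1 had 0 of 8077362 counts, which allows up to 0.371 CPM. The other 8 libraries held 79 to 246 counts each. The library without Calcr counts had 110141 counts on Acp5, 41269 on Ctsk and 1376 on Dcstamp, which were the largest count of Ctsk and of Dcstamp in any library. It was also the deepest library. In CPM, juvenile replicate 2 was higher for Ctsk (4882 against 4770.3) and juvenile replicate 1 for Dcstamp (169 against 159). With this library the log2 fold change was 0.13 (95% interval -1.76 to 2.02, adjusted p = 0.97, edgeR), and without it the sign turned to -0.30 (adjusted p = 0.772, edgeR).

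Mitf (ENSMUSG00000035158, chromosome 6) was the least abundant member, with 47 to 158 counts a library. Its CPM were 16.3, 8.64, 21.1, 8.82 and 20.8 in juvenile and 10.1, 23.7, 15.96 and 19.8 in adult replicates, and the ages overlapped. The log2 fold change was -0.20 (95% interval -1.22 to 0.82, adjusted p = 0.897, edgeR). Mitf also acts in melanocytes and mast cells. Of 5 melanocyte markers, Tyrp1, Dct and Mlana had 0 counts in every library and the summed CPM reached 21.4 at most. The 6 mast cell markers summed to 2.02 to 7.02 CPM in juvenile and 5.94 to 176 CPM in adult libraries, with 1 of the 6 tested and 0 called. The part of mast cells in the level of Mitf was not tested.

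**Figure D3:**
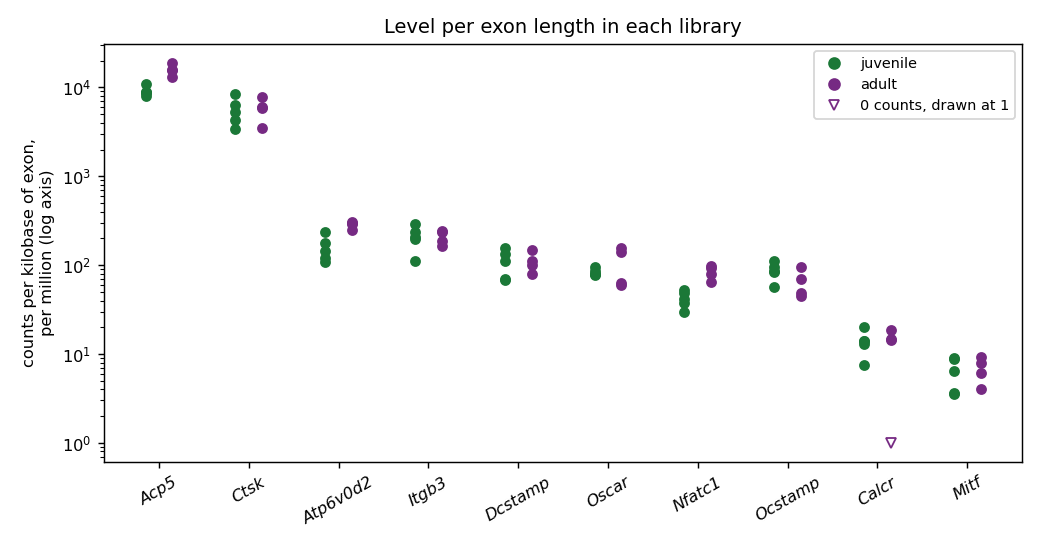
Each point is 1 library, with counts divided by exon length and scaled to the same sum in every library, as TPM (vertical log axis), juvenile and adult side by side for each gene. Acp5 and Ctsk stand at 3437 or more in every library, the other 8 genes lie at 307 or less, and the open triangle is the adult library with 0 counts of Calcr.

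To compare genes with each other, counts were divided by the length of the merged exons and scaled to the same sum in each library, as TPM. On this scale juvenile mice averaged 9062 ± 1111 for Acp5 (SD, n = 5) and adult mice 15857 ± 2305 (SD, n = 4). Ctsk averaged 5541 ± 1907 (SD, n = 5) and 5847 ± 1775 (SD, n = 4). Together these enzymes of the resorbing cell made up 94.5% to 96.8% of the summed level of the 10 genes in juvenile and 95.4% to 96.8% in adult libraries. Acp5 exceeded Ctsk in all 9 libraries, although their ranges overlapped in juvenile mice. In juvenile mice the next level was that of Itgb3 at 209 ± 65.1 (SD, n = 5), followed by Atp6v0d2 at 158 ± 52.1, Dcstamp at 107 ± 38.5, Ocstamp at 86.8 ± 19.8 and Oscar at 83.1 ± 6.94, and each of these neighbours overlapped with the next. Nfatc1 lay below Oscar at 42.0 ± 9.01 without overlap. Calcr at 13.8 ± 4.46 and Mitf at 6.27 ± 2.64 came last and overlapped with each other. In adult mice Atp6v0d2, at 287 ± 25.1 (SD, n = 4), stood above Itgb3, at 206 ± 36.9 (SD, n = 4), in all 4 libraries and without overlap, whereas Itgb3 was the higher of the pair in 4 of 5 juvenile libraries. Adult levels of Dcstamp, Oscar, Nfatc1 and Ocstamp averaged 109, 105, 83.8 and 64.5, and each neighbour in that order overlapped with the next.

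The rest of the pathway was examined with 5 lists of 57 genes in all. Of the 55 that were tested, 9 were higher in adult mice, 1 was higher in juvenile mice and 45 did not pass (18.2% called, against 3.88% of all tested genes). The median log2 fold change of the 55 was -0.46 and that of all tested genes -0.01. Over the 7 libraries 3 of these genes were called. The lists were written with earlier results of these data known, so the counts are a description.

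Signalling genes upstream of Nfatc1 held 3 called genes among 21 tested, and all 3 were higher in adult mice, while Trem2 was too low to be tested. Csf1r, the M-CSF receptor of precursors and macrophages, had 251 to 381 CPM in juvenile and 605 to 729 CPM in adult libraries (log2 fold change -1.03, standard error 0.16, adjusted p = 0.00406, edgeR). Fcer1g, the Fc receptor gamma chain through which OSCAR signals, had 55.3 to 120.5 CPM and 258 to 346 CPM (log2 fold change -1.74, standard error 0.25, adjusted p = 0.00285, edgeR). Both calls held over the 7 libraries and without any 1 library. Exons of Csf1r share 873 bases with Hmgxb3 on the opposite strand, whose reads cannot be told apart there without strand. Tyrobp, which encodes the adaptor DAP12 of osteoclasts and other myeloid cells, averaged 291 CPM in juvenile and 674 CPM in adult mice (log2 fold change -1.21, standard error 0.27, adjusted p = 0.024, edgeR). It was at 363 CPM in adult replicate 2, inside the juvenile range of 199 to 424 CPM, and at 704 to 826 CPM in the other adult libraries. Its adjusted p rose to between 0.0521 and 0.0711 without juvenile replicate 2, 3, 4 or 5 or adult replicate 3 or 4 (edgeR).

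Of 14 resorption genes, Car2 and Snx10 were called, both higher in adult mice. The median log2 fold change of this list was -0.13, and 10 of its values were negative. Mmp9 averaged 5018 CPM in juvenile and 4601 CPM in adult mice (log2 fold change 0.13, adjusted p = 0.86, edgeR). Tcirg1 averaged 471 and 493 CPM (log2 fold change -0.066, adjusted p = 0.939, edgeR). Car2, the carbonic anhydrase that supplies protons to the osteoclast and is also abundant in erythroid cells, had 61.9 to 222 CPM in juvenile and 191, 341, 501 and 994 CPM in adult replicates (log2 fold change -2.09, standard error 0.44, adjusted p = 0.0195, edgeR). Erythroid markers were highest in the same library as Car2, adult replicate 4, at a sum of 34133 CPM against 4257 to 10226 CPM in the other adult libraries. Without adult replicate 4 the log2 fold change of Car2 was -1.55 (adjusted p = 0.0532, edgeR), and its call was also lost without juvenile replicate 2, 3, 4 or 5, at 0.0536 to 0.0583. Snx10, a sorting nexin needed for acid secretion, had 132 to 288 CPM and 319.6 to 517 CPM (log2 fold change -0.97, standard error 0.24, adjusted p = 0.0437, edgeR), and its call was lost at 0.0537 to 0.116 without juvenile replicate 1, 2, 4 or 5 or adult replicate 1 or 2. With limma voom over all 9 libraries the adjusted p of Snx10 was 0.0517.

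Among 10 adhesion genes, Rac2, a small GTPase of haematopoietic cells that organises the osteoclast cytoskeleton, was called. It had 108 to 241 CPM in juvenile and 249 to 467 CPM in adult libraries (log2 fold change -1.005, standard error 0.26, adjusted p = 0.0462, edgeR). The call was lost at 0.0596 to 0.121 without juvenile replicate 2, 3, 4 or 5 or adult replicate 1 or 3. Cell fusion outside the members gave Cd47 and Cd9 among 7 tested genes. Cd47, which binds SIRPα on the partner cell, had 101 to 149 CPM in juvenile and 206 to 285 CPM in adult libraries (log2 fold change -1.10, standard error 0.18, adjusted p = 0.00593, edgeR). Its call held over the 7 libraries and without any 1 library. The tetraspanin gene Cd9 had 144 to 229.9 CPM and 303 to 399 CPM (log2 fold change -0.88, standard error 0.18, adjusted p = 0.0168, edgeR). Both are expressed by many cell types, and exons of Cd9 share 218 bases with Gm26728 on the opposite strand.

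On the side of the ligands, Csf1 had 55.1 to 95.2 CPM in juvenile and 109.9 to 189.8 CPM in adult libraries (log2 fold change -1.04, standard error 0.22, adjusted p = 0.0187, edgeR), with adjusted p = 0.051 and 0.0513 without juvenile replicate 3 and 4. The RANKL decoy receptor gene Tnfrsf11b was the 1 pathway gene higher in juvenile mice, with 12.5 to 48.1 CPM against 0 to 1.48 CPM in adult mice (adjusted p = 0.016, edgeR). This call was lost without juvenile replicate 4 (adjusted p = 0.0606, edgeR) and with limma voom over all 9 libraries (adjusted p = 0.122). RANKL itself, encoded by Tnfsf11, gave no call (edgeR, adjusted p = 0.923). It averaged 27.2 CPM in juvenile and 32.7 CPM in adult mice, and adult libraries spread from 2.66 to 92.4 CPM. Its estimate of -0.26 on the log2 scale had a standard error of 0.75. Tnfrsf11a, the RANKL receptor gene in the signalling list, was not called either (-0.50, edgeR, adjusted p = 0.599).

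**Figure D4:**
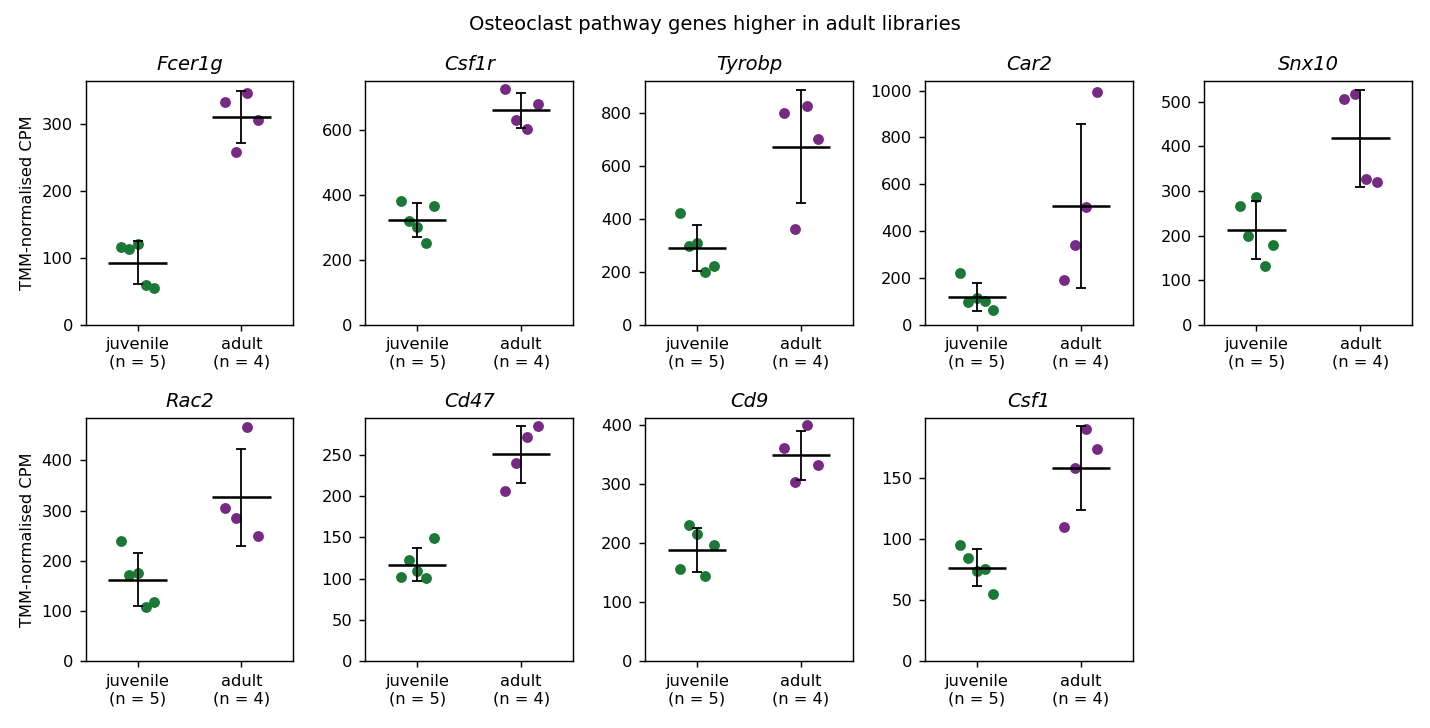
Each panel plots the TMM-normalised CPM (vertical axis, from 0) of 1 of the 9 pathway genes that were higher in adult mice, for 5 juvenile and 4 adult libraries, with the mean as a horizontal bar and the SD as whiskers. Tyrobp and Car2 overlap between the ages and the other 7 genes do not.

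Markers of other cells of the marrow moved with age as well. Neutrophil markers (9 of 10 tested, 8 called, higher in adult mice) summed to 18.1 to 72.1 CPM in juvenile libraries and to 4439, 104, 3542 and 3558 CPM in adult replicates 1 to 4. Monocyte markers (4 of 6 tested, 1 called, higher in adult mice) summed to 7.70 to 33.0 CPM and to 46.3 to 368 CPM. Macrophage markers (7 of 10 tested with a median log2 fold change of -2.48, 0 called, Marco and Vsig4 at 0 counts throughout) summed to 37.5 to 127 CPM and to 413, 17.5, 130.4 and 352 CPM. Adult replicate 2 therefore held the lowest macrophage sum of all 9 libraries. In this library Acp5 was at 13280.5 CPM, Nfatc1 at 247 CPM, Atp6v0d2 at 338 CPM and Csf1r at 632 CPM. The ages did not overlap for these genes, so any adult library lies above every juvenile library for them. Tyrobp and Car2, the called pathway genes that overlapped, were at 363 and 341 CPM in adult replicate 2. The juvenile ranges were 199 to 424 CPM for Tyrobp and 61.9 to 222 CPM for Car2. The neutrophil (104 CPM), monocyte (46.3 CPM) and erythroid (4257 CPM) sums of adult replicate 2 lay above every juvenile library. Its B cell sum, at 1.34 CPM, lay inside the juvenile range. B cell markers (4 of 6 tested, 0 called) summed to 0.212 to 25.9 CPM and 1.34 to 122 CPM, and erythroid markers (7 of 8 called, higher in adult mice) to 341 to 2439.7 CPM and 4257 to 34133 CPM. Osteoblast markers went the other way, with 5 of 10 called at a higher level in juvenile mice and 2 in adult mice, and sums of 170615 to 212571 CPM against 62988 to 93392 CPM. Chondrocyte markers (7 of 8 tested, 2 called, higher in adult mice) summed to 363 to 989 CPM and 598 to 4790.0 CPM, the highest in adult replicate 2. The part of these cells in the differences of Acp5, Nfatc1, Atp6v0d2 and the pathway genes was not tested.

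**Figure D5:**
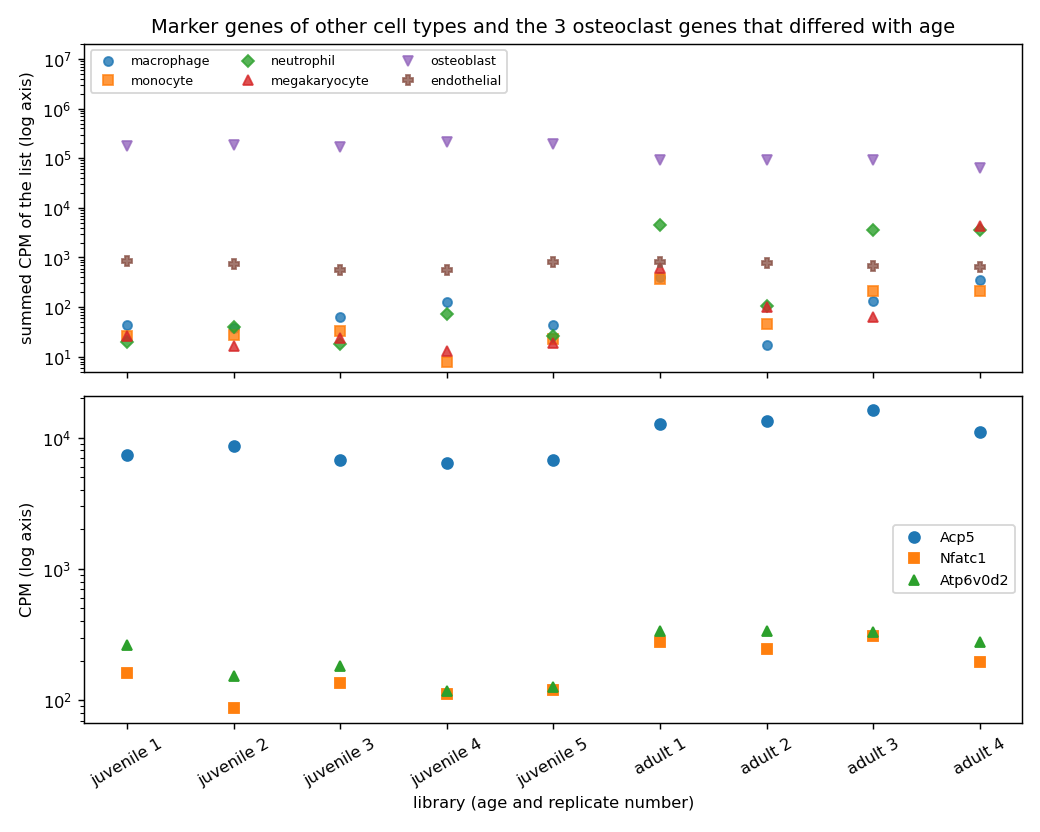
The upper panel plots the summed CPM (log axis) of 6 marker lists in each of the 9 libraries, and the lower panel the CPM (log axis) of Acp5, Nfatc1 and Atp6v0d2 in the same libraries. In adult replicate 2 the macrophage sum, 17.5 CPM, is the lowest of all libraries. Its neutrophil and monocyte sums, 104 and 46.3 CPM, are below the other adult libraries but above every juvenile library. Acp5, Nfatc1 and Atp6v0d2 are at 13280.5, 247 and 338 CPM there, and these genes do not overlap between the ages in any library.

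Within an age the members did not move as one. After the mean of each age was removed, 30 of the 45 pairs of members had a positive Pearson correlation of log2 CPM over the 9 libraries, and the median was 0.26. The closest pair was Dcstamp and Nfatc1 (r = 0.88). Oscar correlated at r = -0.39 with the average profile of the 10 genes, which includes Oscar, and at r = -0.05 without removal of the age means. Of genes outside the set, Ptprc was closest to that profile after removal of the age means (r = 0.98), followed by Upp1 (0.95), Haus8 (0.94), Rtl8a (0.93) and Slc12a5 (0.92). Without removal they were Haus8 (0.96), Oaf (0.94), Nln (0.94), Upp1 (0.93) and Ptprc (0.93). Ptprc encodes CD45, the common leukocyte antigen, and was higher in adult mice, at a mean of 60.2 against 15.6 CPM (log2 fold change -1.95, standard error 0.43, adjusted p = 0.0261, edgeR), a call lost at 0.0536 to 0.0706 without juvenile replicate 2, 3 or 5 or adult replicate 2 or 3. Rtl8a has near-identical copies, and its counts are uncertain to that extent. These correlations were chosen as the highest of all tested genes and are a description of 9 libraries.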

How the data were processed

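RNA of laser-microdissected capillaries with surrounding cells was sequenced as paired-end reads from SMART-Seq v4 cDNA and Nextera XT libraries. Mapping by the authors to mouse mm10 used TopHat2 with Bowtie2, both unmodified in their settings. They deposited raw counts, 1 table per library. The submitters' processing notes also list featureCounts, while versions, strand setting and annotation release were not given in the sources used here. SMART-Seq v4 does not mark strand and carries no molecular identifiers, so limits from counts cover counting error only. Of 39179 gene identifiers, 96.2% had an entry in GENCODE M21 (GRCm38), which gave symbols, positions and exon lengths.

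Counts were filtered with filterByExpr, scaled by TMM and compared with the quasi-likelihood F test of edgeR 4.0.16 under R 4.3.3 (5 juvenile and 4 adult libraries, no covariates, Benjamini-Hochberg over 13418 genes, threshold 0.05). Standard errors were derived from F. CPM are relative to the effective library size. The exact permutation test over 126 splits was two-sided on log2 CPM with a prior count of 2. Alternatives were DESeq2 1.42.0, limma 3.58.1 voom with quality weights, other scalings, no filter, thinned counts, a replicate block, omitted gene classes, and omitted libraries. No pair of libraries were copies (chi-square per degree of freedom at least 16.9). The fit was tested on simulated data.

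Ratios between members are a description with no test. Members, lists and tests were chosen with earlier results of these data known. Named were all members, up to 4 called genes per pathway list and the 5 genes most like the members' mean profile. Some pathway genes without a call, such as Tnfsf11 and Mmp9, were named as well. Only Acp5, Oscar and Ctsk promoters were printed, from RefSeq; protein sequences were not used here. Figures were drawn with matplotlib 3.10.9.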

Additional observations from a re-analysis of the deposited data

Results flagged for a closer look

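Atp6v0d2 in adult replicate 4 was at 277 CPM, set apart from the remaining adult replicates at 333 to 338 CPM by a gap of 0.919 of the whole range. It still lay above the highest juvenile library. Of the 20 groups examined this was the 1 such case, and chance alone gives about 1.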

How the results depend on the processing

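The 3 calls among the members (Acp5, Nfatc1 and Atp6v0d2) were made again with DESeq2's size factors, the upper quartile, no filter, thinned counts, omitted gene classes, limma voom and DESeq2. With DESeq2, 1492 genes were called, 772 of them higher in adult and 720 in juvenile mice, and 19 pathway genes. Over the 7 libraries 73 genes (31 higher in adult, 42 in juvenile mice), 0 members and 3 pathway genes were called. Without each library in turn, 262 to 651 genes were called (117 to 345 higher in adult and 145 to 306 in juvenile mice), 4 to 11 pathway genes and 2 or 3 members.

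The labels do not say that replicate numbers pair the libraries, and deviations of same-numbered libraries correlated at -0.032 to 0.030. Such values cannot exclude a shared batch that acts on part of the genes. With the replicate number as a block, 89 genes (36 higher in adult, 53 in juvenile mice), 0 members and 3 pathway genes were called, with adjusted p = 0.0727 for Acp5, 0.0596 for Nfatc1 and 0.102 for Atp6v0d2 (edgeR), and Slc12a5 turned to -0.10.

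Signs turned for genes that were not called. Over the 7 libraries log2 fold changes were 0.11 for Ctsk, -0.12 for Calcr, 0.062 for Dcstamp, 0.088 for Itgb3 and 0.063 for Upp1. Without 1 library they spanned -0.30 to 0.43 for Calcr, -0.29 to 0.061 for Dcstamp, -0.19 to 0.094 for Itgb3 and -0.36 to 0.69 for Slc12a5, and mean log2 CPM differences spanned -0.33 to 1.88 for Calcr, -0.31 to 0.0089 for Dcstamp and -0.23 to 0.10 for Itgb3. Causes were not tested. At 47 to 158 counts of Mitf and 0 to 246 of Calcr, counting error adds to the spread. With the longest transcript as length, levels averaged 66.5 (Oscar) and 52.0 (Nfatc1) in juvenile and 104 (Nfatc1), 168 (Itgb3) and 246 (Atp6v0d2) in adult mice.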
